A study of Mus musculus with 4 samples.

Results

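Acyl-CoA thioesterases (the Acot genes) cut an acyl-CoA, a fatty acid activated on coenzyme A, back into a free acid and coenzyme A. Acyl-CoA synthetases run the opposite step, so both enzyme groups together set how much activated fatty acid a compartment holds. The family has 2 structural types that are unrelated in sequence. Type I enzymes (Acot1 to Acot6) are built on an alpha/beta-hydrolase fold, and type II enzymes (Acot7 to Acot13) on the hotdog fold. Several members are known targets of the fatty acid receptor PPAR alpha in mouse liver, and Acot11 was first described as a gene that cold induces in mouse brown fat.

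The 9 genes described here are Acot1, Acot2, Acot3, Acot4, Acot7, Acot8, Acot9, Acot11 and Acot13. They were taken by name, with earlier results of these data known, and all 9 had a value among the 13677 genes measured. Acot6 also had a value and is described beside them. Acot5, Acot10 and Acot12 were not analysed here. RNA sequencing was done on inguinal white adipose tissue of mice, in 2 libraries labelled FLCNKO, from animals with an adipose knockout of Flcn, and 2 WT libraries from wildtype animals. Flcn encodes folliculin, a tumour suppressor of the mTOR pathway, and the series asks how it bears on the browning of white fat. For age, sex, housing temperature, the driver of the knockout and the number of animals behind a library, nothing is given in the sources used here. A p-value therefore reflects the spread among 4 libraries, which may be technical.

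Values are the authors' deposited log2 expression values, brought to nearly the same distribution in every library, so the depth behind them is unknown. Flcn itself was 12.35 and 12.12 in FLCNKO libraries and 12.36 and 12.21 in WT libraries. Its log2 fold change was -0.05 ± 0.13 (moderated SE, with 0.852 as limma adjusted p). The moderated SE of limma, printed after each ±, draws on the variance of all genes as well as on the libraries. Flcn was measured in whole tissue and without a known deleted region, so it does not check the labels. Adipocyte markers fit the labelled tissue, with medians of 17.24 and 17.66 in FLCNKO libraries and 17.46 and 17.49 in WT libraries over 12 genes. Of the 12, 0 passed a limma adjusted p of 0.05. At an unadjusted p under 0.05, 3 were lower and 0 higher, against 10.3% and 12.1% of all genes. The 3 were Cfd, Adipoq and Retn, with log2 fold changes of -1.13, -0.46 and -0.44. Libraries stood apart in skeletal muscle markers, whose medians over 16 of 17 genes were 11.71 and 5.51 in FLCNKO libraries and 12.66 and 9.75 in WT libraries. Of 10 fibroblast markers 5 fell (median log2 fold change -1.01), and of 12 macrophage markers 2 fell (median -0.81). Over all genes 0.614% fell (limma adjusted p under 0.05). In whole tissue, fewer cells of a type and less RNA per cell cannot be told apart.

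Sequence is shown first because Acot1 and Acot2 are near copies, and Acot3 and Acot4 more distant relatives, which bears on how far their values can be separated. In the GENCODE M21 annotation, Acot2, Acot1, Acot4, Acot3, Acot5 and Acot6 lie in this order on the plus strand of chromosome 12. The coding sequences of Acot1 and Acot2 were identical at 95.2% of 1239 aligned bases, with a longest identical run of 256 bases. Acot3 was 83.9% identical to Acot1, and Acot4 was 72.8% identical to Acot1. The stretch of 60 bases on which the 4 genes differed most is printed from the coding strand, with capitals at the 45 positions where they are not all alike. It begins at coding base 771 in Acot1 and Acot4, 894 in Acot2 and 804 in Acot3.
Acot1: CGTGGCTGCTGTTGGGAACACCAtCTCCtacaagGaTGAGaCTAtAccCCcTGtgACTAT
Acot2: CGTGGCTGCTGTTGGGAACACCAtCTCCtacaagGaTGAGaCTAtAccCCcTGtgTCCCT
Acot3: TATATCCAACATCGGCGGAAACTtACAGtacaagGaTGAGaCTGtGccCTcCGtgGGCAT
Acot4: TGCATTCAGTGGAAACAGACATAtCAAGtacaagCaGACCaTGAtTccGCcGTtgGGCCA

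Even there, Acot1 and Acot2 parted only in the last bases, while Acot3 and Acot4 each had a sequence of their own. Elsewhere the 4 genes held a stretch of 60 bases with 0 differences, which begins at coding base 195 in Acot1 and Acot4, 318 in Acot2 and 228 in Acot3. A read that falls inside it cannot be given to 1 gene.
All 4 genes: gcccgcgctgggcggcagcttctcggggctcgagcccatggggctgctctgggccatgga

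The compartment of Acot2 rests on its first codons. Its coding sequence begins 123 bases, or 41 codons, before the aligned start of Acot1. As background, this added leader is what sends the Acot2 enzyme into mitochondria, while Acot1 stays in the cytosol. The leader is printed from coding base 1 to 126, with capitals at the Acot2 start codon and at the codon aligned with the start of Acot1.
Acot2: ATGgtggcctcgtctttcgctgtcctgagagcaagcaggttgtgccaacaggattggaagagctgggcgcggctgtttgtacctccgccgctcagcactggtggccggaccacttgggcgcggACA

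Over whole transcripts, 29.9% of the 31-base stretches of Acot2 also occurred in Acot1, and 16.7% of those of Acot1 in Acot2. With stretches of 75 bases these shares were 20.5% and 11.2%. Acot3 and Acot4 shared at most 8.67% with any 1 of the other cluster genes. No source used here states how the authors treated reads that match several genes, so the values of both genes are uncertain. The limit weighs more on Acot1, which had the lower value in every library. Acot2 was 2.86 and 3.64 above it on the log2 scale in FLCNKO libraries and 4.46 and 3.67 above it in WT libraries. How much of the Acot1 value shared reads of Acot2 make up was not tested. Acot7 and Acot13 shared 0% of their 31-base stretches with any other gene.

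**Figure D1:**
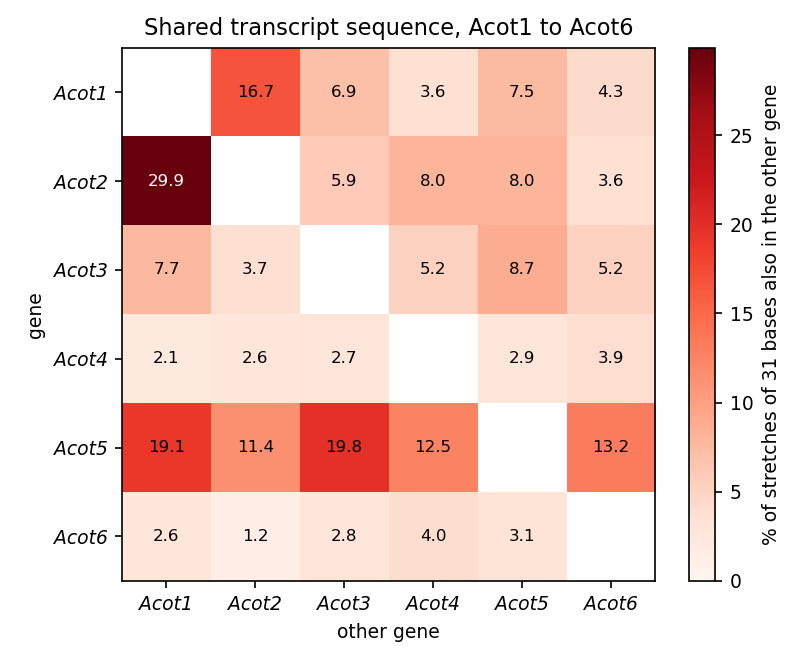
Share of the 31-base stretches of each gene (rows) that also occur in transcripts of another gene of the chromosome 12 cluster (columns), in percent, from GENCODE M21. The pair of Acot2 and Acot1 is the darkest cell of the map, with 29.9% of Acot2 stretches found in Acot1.

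Of the 9 genes, 3 rose in FLCNKO libraries and 0 fell (limma, adjusted p under 0.05 over all 13677 genes), while over all genes 0.98% were called higher, 0.614% lower and 1.59% in either direction. At an unadjusted p under 0.05, 6 of the 9 were higher and 0 lower, against 12.1% and 10.3% of all genes. The 3 that passed after adjustment were Acot2, Acot4 and Acot13, by 2.61- to 3.13-fold. Acot1, Acot3 and Acot11 had larger log2 fold changes, from 2.46 to 3.86, but wider spreads, and did not pass. Acot7, Acot8 and Acot9 had log2 fold changes from 0.22 to 0.33 and did not pass. The median log2 fold change was 1.58 over the 9 genes and 0.0046 over all genes. In all 9 genes both FLCNKO values lay above both WT values, which held for 29.2% of all genes, while 25.4% had both FLCNKO values below. A log2 fold change above 0, seen in all 9, was seen in 50.4% of all genes.

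**Figure D2:**
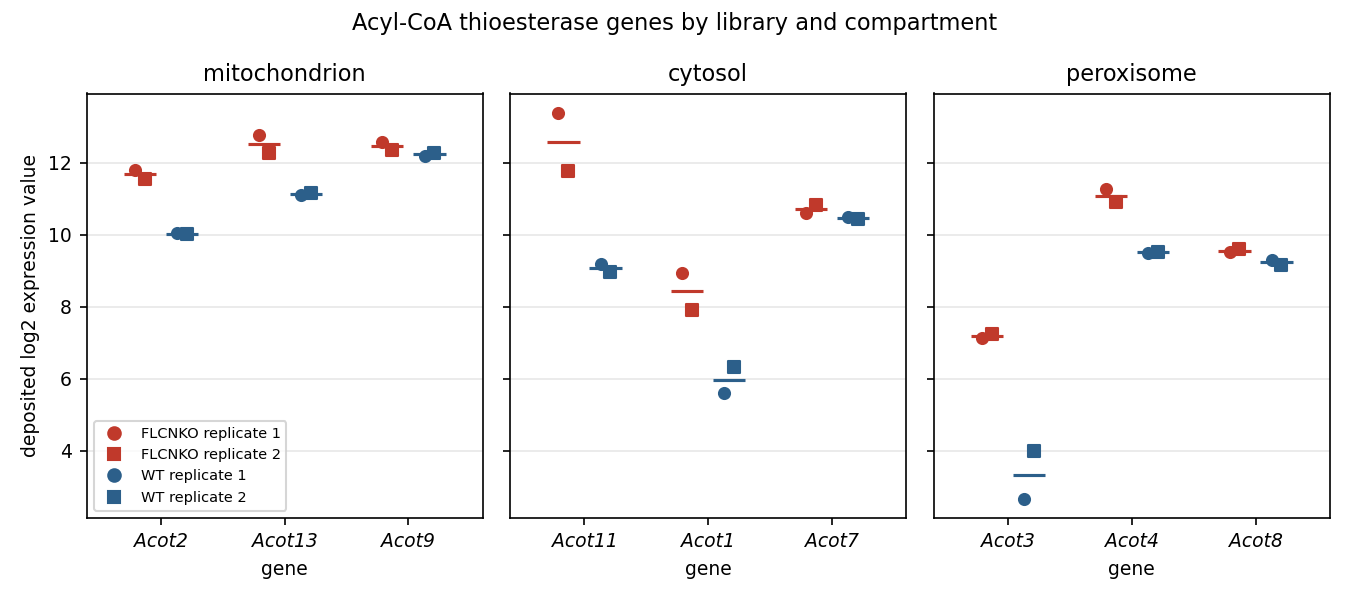
Deposited log2 expression value (vertical axis) of each thioesterase gene in every library, in panels by the known compartment of the enzyme. Circles are replicate 1, squares replicate 2 and short bars group means (n = 2), with FLCNKO in red left of WT in blue. In each gene both FLCNKO points lie above both WT points, narrowly for Acot9, Acot7 and Acot8.

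Among the mitochondrial enzymes, Acot2, which acts on long-chain acyl-CoA in the matrix, had log2 values of 11.81 and 11.55 in FLCNKO libraries and 10.06 and 10.01 in WT libraries. The groups were 1.49 apart at their nearest values, more than the spread within either group. Acot2 rose by 1.65 ± 0.14 on the log2 scale (moderated SE, 2 libraries a group, with 0.0336 as limma adjusted p). Its 95% interval ran from 1.28 to 2.01.

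Acot13, a small enzyme found at mitochondria and in the cytosol, had log2 values of 12.78 and 12.27 in FLCNKO libraries and 11.11 and 11.17 in WT libraries. Again no library of one group reached the other, although the FLCNKO libraries differed by 0.50 from each other and the WT libraries by less. Acot13 rose by 1.39 ± 0.19 on the log2 scale (moderated SE, 2 libraries a group, with 0.0478 as limma adjusted p). It shares no stretch with another gene.

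Acot9, a mitochondrial enzyme with a broad choice of substrates, had log2 values of 12.57 and 12.34 in FLCNKO libraries and 12.18 and 12.28 in WT libraries. The groups were only 0.06 apart, less than the gap between the FLCNKO libraries. The Acot9 log2 fold change was 0.22 ± 0.13 (moderated SE, 2 libraries a group, with 0.366 as limma adjusted p). Its 95% interval ran from -0.10 to 0.55. In Acot9, 28% of 31-base stretches also occur in Acot10, a near copy, so its value is uncertain to that extent.

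Among the cytosolic enzymes, Acot11, which carries a lipid-binding START domain, had log2 values of 13.39 and 11.78 in FLCNKO libraries and 9.20 and 8.96 in WT libraries. Both FLCNKO values stood at least 2.58 above WT, but they were 1.60 apart from each other. The Acot11 log2 fold change of 3.51 ± 0.52 (moderated SE, 2 libraries a group, with 0.053 as limma adjusted p) did not pass the threshold. It did pass with a filter on low values (adjusted p = 0.0474 for a mean of at least 8), with array weights (adjusted p = 0.0382) and with the replicate number as a block (adjusted p = 0.0234), and adjusted p ranged from 0.0234 to 0.273 over all alternatives. Acot11 overlaps Fam151a on the opposite strand, and 18.7% of its 31-base stretches occur in Fam151a. The sources used here do not state the strand setting of the counting, so reads of the pair cannot be told apart, and Fam151a was not analysed here.

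The FLCNKO libraries differed in the same direction in markers of brown and beige fat. The summed level of these 14 markers (log2 of the sum of 2 raised to each value) was 17.87 and 16.62 in FLCNKO libraries and 14.83 and 14.39 in WT libraries. Their median log2 fold change was 2.55, with 2 called higher and 0 lower, against 0.98% and 0.614% of all genes. The defining marker Ucp1, the proton channel of brown fat, was 13.79 and 10.06 in FLCNKO libraries and 10.59 and 7.42 in WT libraries. Ucp1 did not pass (limma adjusted p = 0.336), and WT replicate 1 lay above FLCNKO replicate 2. Replicate 1 was the higher library in both groups. Of the 14 markers, 11 had both FLCNKO values above both WT values, against 29.2% of all genes. Prdm16 and Dio2 had log2 fold changes of 0.016 and -0.08. The part of brown and beige cells in the Acot11 difference was not tested.

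Acot1, the cytosolic twin of Acot2, had log2 values of 8.95 and 7.91 in FLCNKO libraries and 5.60 and 6.34 in WT libraries. The groups were 1.57 apart, and replicate 1 was the higher FLCNKO library but the lower WT library. The Acot1 log2 fold change of 2.46 ± 0.51 (moderated SE, 2 libraries a group, with 0.0806 as limma adjusted p) did not pass. It ranged from 1.94 without FLCNKO replicate 1 to 2.98 without FLCNKO replicate 2, and the share of Acot2 reads in it is unknown.

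Acot7, a long-chain enzyme best known from brain, had log2 values of 10.61 and 10.83 in FLCNKO libraries and 10.49 and 10.44 in WT libraries. The gap of 0.11 between the groups was smaller than the spread of the FLCNKO libraries. The Acot7 log2 fold change was 0.25 ± 0.14 (moderated SE, 2 libraries a group, with 0.357 as limma adjusted p). Its 95% interval ran from -0.11 to 0.61.

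Among the peroxisomal enzymes, Acot4, which acts on succinyl-CoA and other dicarboxylic acyl-CoA, had log2 values of 11.27 and 10.91 in FLCNKO libraries and 9.49 and 9.54 in WT libraries. The groups were 1.37 apart. Acot4 rose by 1.58 ± 0.17 on the log2 scale (moderated SE, 2 libraries a group, with 0.0404 as limma adjusted p). Its 95% interval ran from 1.14 to 2.01. An antisense gene, 4732463B04Rik, overlaps both Acot4 and Acot3, and holds 11.3% of the 31-base stretches of Acot4 and 8.17% of those of Acot3. A gene on the same strand, Gm49366, overlaps both and holds 11.5% of the Acot3 stretches.

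Acot3, a peroxisomal enzyme for long-chain acyl-CoA, had log2 values of 7.15 and 7.24 in FLCNKO libraries and 2.68 and 4.0 in WT libraries. In WT libraries it sat at the bottom of the range, where values are coarse, with 55 and 128 of 13677 genes at or below it, against 1485 and 1564 in FLCNKO libraries. The log2 fold change of 3.86 ± 0.87 had rank 21 among all genes (moderated SE, 2 libraries a group, with 0.0906 as limma adjusted p) and did not pass. Leaving out WT replicate 1 gave 3.20 and leaving out WT replicate 2 gave 4.52, so its place against Acot11 depends on single libraries.

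Acot8, which acts on acyl-CoA of many lengths in peroxisomes, had log2 values of 9.53 and 9.60 in FLCNKO libraries and 9.29 and 9.17 in WT libraries. The groups did not overlap and were 0.23 apart. The Acot8 log2 fold change was 0.33 ± 0.16 (moderated SE, 2 libraries a group, with 0.298 as limma adjusted p). Snx21 overlaps Acot8 on the opposite strand, holds all 218 of the Acot8 stretches found elsewhere, and had values of 10.77 and 10.49 in FLCNKO libraries and 11.23 and 11.16 in WT libraries.

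**Figure D3:**
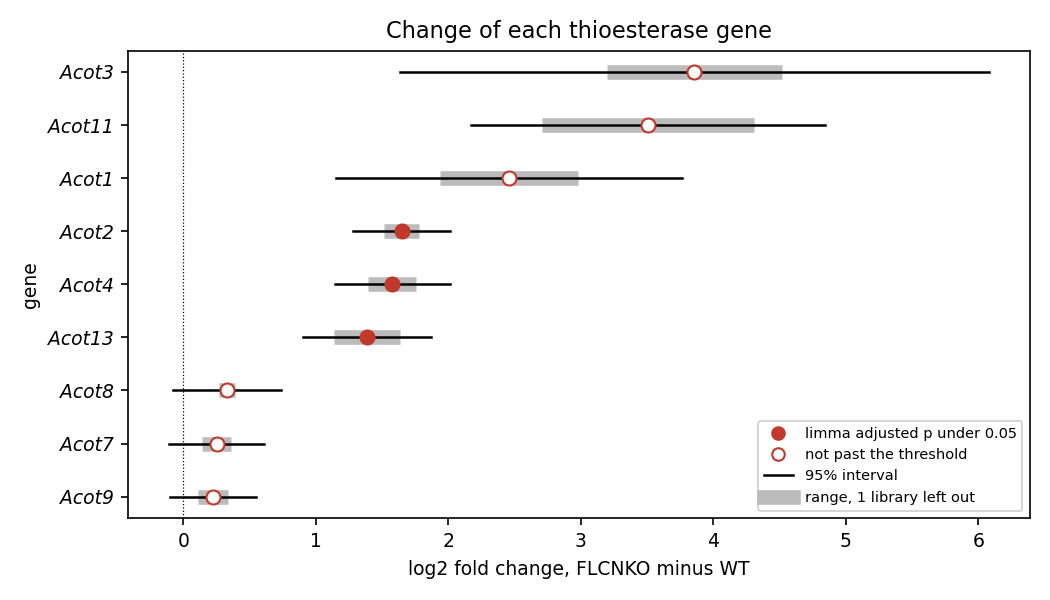
Log2 fold change (FLCNKO minus WT, horizontal axis) of each thioesterase gene, with its 95% interval as a thin line and the range over the fits that leave out 1 library as a grey band. Filled points passed an adjusted p of 0.05 with limma (Acot2, Acot4 and Acot13), and the intervals of Acot8, Acot7 and Acot9 include 0.

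By compartment, 2 of 3 mitochondrial genes, 0 of 3 cytosolic genes and 1 of 3 peroxisomal genes rose (limma), against 0.98% of all genes. In each compartment 2 of 3 were higher at an unadjusted p under 0.05, against 12.1% of all genes. Median log2 fold changes were 1.39, 2.46 and 1.58. The lowest in each compartment were Acot9, Acot7 and Acot8, and whether these differ from the other genes of their compartment was not shown by a test. The summed level of the mitochondrial genes was 14.03 and 13.68 in FLCNKO libraries and 12.95 and 13.02 in WT libraries. For the cytosolic genes it was 13.64 and 12.45 in FLCNKO libraries and 11.02 and 10.94 in WT libraries. For the peroxisomal genes it was 11.71 and 11.48 in FLCNKO libraries and 10.40 and 10.38 in WT libraries. These sums take no account of transcript length, and on them Acot11 was the main cytosolic part in FLCNKO libraries. Per kilobase of transcript, Acot11 was above Acot7 in FLCNKO replicate 1 (10.88 against 10.02) and below it in FLCNKO replicate 2 (9.28 against 10.24).

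Within the chromosome 12 cluster, Acot6, a peroxisomal enzyme of the same type, had log2 values of 9.07 and 9.0 in FLCNKO libraries and 8.68 and 8.88 in WT libraries. The Acot6 log2 fold change was 0.26 ± 0.19 (moderated SE, 2 libraries a group, with 0.485 as limma adjusted p). Its neighbours Acot1 to Acot4 had log2 fold changes from 1.58 to 3.86, all higher in FLCNKO libraries. Of these 4, 2 passed, against 0.98% of all genes called higher. Whether Acot6 differs from them was not tested.

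Differences between pairs of genes inside a library do not depend on a scaling that shifts all genes alike. Acot2 minus Acot9, both mitochondrial, was -0.75 and -0.79 in FLCNKO libraries and -2.13 and -2.27 in WT libraries, so Acot2 lay below Acot9 in every library and closer to it in FLCNKO libraries, by 1.42. Acot11 minus Acot7, both cytosolic, was 2.78 and 0.96 in FLCNKO libraries and -1.29 and -1.48 in WT libraries, so the sign of the difference was opposite in the 2 groups. Whether the deposited scale is already per length is not stated. Acot2 minus Acot13 differed by only 0.26 between the groups. Acot2 minus Acot1 was 2.86 and 3.64 in FLCNKO libraries and 4.46 and 3.67 in WT libraries. Acot4 minus Acot3 was 4.13 and 3.67 in FLCNKO libraries and 6.82 and 5.54 in WT libraries. For each of the 5 pairs the exact two-sided permutation p was 0.333, raw and adjusted over the 5, which is the smallest that 2 libraries against 2 allow.

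Levels of different genes were compared per kilobase of the longest coding transcript in GENCODE M21, which is not the authors' annotation. This assumes that the deposited values are not already per length, which is not stated. On the deposited values themselves the highest mean was that of Acot11 in FLCNKO libraries (12.59, against 12.53 for Acot13) and that of Acot9 in WT libraries (12.23, against 11.14 for Acot13). On the log2 scale per kilobase Acot13 was highest in both groups, with 13.25 and 12.75 in FLCNKO libraries and 11.58 and 11.64 in WT libraries. Acot9 came next, with 11.76 and 11.54 in FLCNKO libraries and 11.37 and 11.47 in WT libraries. Acot3 was lowest in both groups, with 5.37 and 5.46 in FLCNKO libraries and 0.90 and 2.22 in WT libraries. In FLCNKO libraries the order between them was Acot2, Acot7, Acot11, Acot8, Acot4 and Acot1, and in WT libraries Acot7, Acot8, Acot2, Acot4, Acot11 and Acot1. The range of Acot11 in FLCNKO libraries, 9.28 to 10.88, covered those of Acot2, Acot7 and Acot8, so Acot11 did not differ from them beyond its spread. The ranges of Acot2, Acot7 and Acot8 did not overlap each other. In WT libraries no neighbours overlapped. The place of Acot11 also depends on its transcript, since a coding form of 2939 bases exists beside that of 5689 bases.

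**Figure D4:**
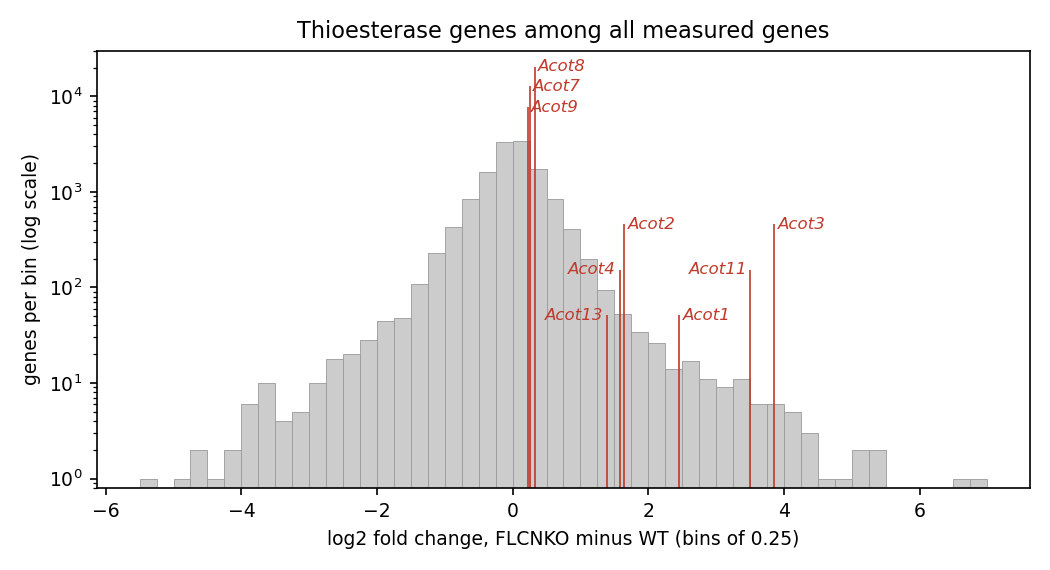
Number of genes (vertical axis, log scale) per bin of log2 fold change (FLCNKO minus WT, horizontal axis, bins of 0.25) over 13677 genes, with the 9 thioesterase genes as red lines whose height has no meaning. Of the 9 genes, 6 lie above a log2 fold change of 1, as do 3.61% of all genes.

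The genes whose pattern over the 4 libraries was nearest to the 3 that rose were found by the root mean square difference between mean-centred log2 values. For Acot2 they were Tinag (0.0445), Acot4 (0.0586), the mitochondrial import gene Timm8a1 (0.0777), the electron transfer gene Etfdh (0.0837) and Vwa8 (0.0877). For Acot4 they were Etfdh (0.0359), Tinag (0.0469), the lactate dehydrogenase gene Ldhb (0.057), Acot2 (0.0586) and the adrenergic receptor gene Adra1a (0.0669). For Acot13 they included Mtfp1, which acts in mitochondrial fission (0.0252), the translation factor gene Eif3j1 (0.0264), Ldhb (0.058) and the glycolytic gene Pgam1 (0.0606). Acot2 and Acot4 thus appear in each other's 5 nearest genes, though they share 8.02% of the 31-base stretches of Acot2. Eif3j1 has a near-identical copy, Eif3j2, so its value is uncertain. With 4 libraries this ranking is only a description.

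Receptors and coactivators that act upstream of fatty acid genes were read from a separate list. Of 8 genes, 3 rose and 0 fell (limma), against 0.98% and 0.614% of all genes. At an unadjusted p under 0.05, 4 were higher and 1 lower, against 12.1% and 10.3% of all genes. The median log2 fold change of the 8 was 0.51. Ppara, the PPAR alpha gene, had log2 values of 12.97 and 12.76 in FLCNKO libraries and 9.65 and 9.88 in WT libraries. It rose by 3.10 ± 0.15 (moderated SE, 2 libraries a group, with 0.0336 as limma adjusted p). The coactivator genes Ppargc1b and Ppargc1a rose by 1.77 and 1.12. The partner gene Rxrg had a log2 fold change of 0.84 and did not pass (limma adjusted p = 0.0526). The 1 lower gene was Rxra, the partner of PPAR alpha in liver, with 13.62 and 13.61 in FLCNKO libraries and 14.14 and 14.18 in WT libraries (log2 fold change -0.55, limma adjusted p = 0.0654). Ppard, a related receptor gene, had -0.50, with both FLCNKO values below both WT values (limma adjusted p = 0.318).

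Of 22 measured PPAR alpha target genes of fatty acid use, 1 rose and 0 fell (limma), against 0.98% and 0.614% of all genes. At an unadjusted p under 0.05, 15 were higher and 1 lower, against 12.1% and 10.3% of all genes. The median log2 fold change of the 22 was 1.10. The mitochondrial carrier gene Ucp3 rose by 2.20 on the log2 scale (limma adjusted p = 0.0336). Ehhadh of peroxisomal oxidation and Acaa2, the thiolase of mitochondrial oxidation, had log2 fold changes of 2.18 and 1.66, without passing (limma adjusted p = 0.0509 and 0.0522).

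Upstream promoter sequence was available from RefSeq for 8 of the 9 genes, as 10 windows of 300 bases on GRCm38.p6. The gene without a window was Acot13, which was not searched. Windows were searched on both strands for the PPAR element DR1 (a direct repeat of AGGTCA with 1 base between, up to 2 mismatches), the single element AGGTCA, the ERR element TCAAGGTCA and the E-box CACGTG, which MiT/TFE factors can bind. The DR1 and ERR patterns contain the single element. Only the Acot4 window held a DR1 match, as did 3.86% of 32851 windows of all genes. The Acot4 window and 1 of the Acot11 windows held an E-box, against 7.15% of all windows. The single element lay within the Acot4 DR1 match and in both Acot3 windows, against 16.3% of all windows. None held the ERR pattern, which is found in 0.423%. The 80 bases before the Acot4 start (chr12:84038299-84038378, plus strand, GRCm38.p6) are printed because both matches fall there, in capitals.
Acot4: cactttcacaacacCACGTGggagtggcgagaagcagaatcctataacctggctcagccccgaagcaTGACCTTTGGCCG

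The DR1 match runs on the minus strand up to the base before the start and has 2 mismatches. A match describes these letters and does not show binding.

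Enzymes that make and carry acyl-CoA were compared next. Of 17 measured acyl-CoA synthetases, 1 rose and 0 fell (limma), against 0.98% and 0.614% of all genes. At an unadjusted p under 0.05, 8 were higher and 1 lower, against 12.1% and 10.3% of all genes. The median log2 fold change of the 17 was 0.47. Acsl3, an endoplasmic reticulum and lipid droplet synthetase, had log2 values of 11.73 and 11.35 in FLCNKO libraries and 10.17 and 10.35 in WT libraries. It rose by 1.28 ± 0.18 (moderated SE, 2 libraries a group, with 0.0478 as limma adjusted p). Acsf3 and Acsf2, both mitochondrial, had log2 fold changes of 0.86 and 0.90, and Acsm5, a medium-chain synthetase, had -1.01, without passing (adjusted p = 0.0517, 0.0966 and 0.0591). In the list of carnitine acyl transfer, 0 of 8 genes passed and 6 were higher at an unadjusted p under 0.05, against 12.1% of all genes. This list shares Slc25a20 and other genes with the PPAR alpha target list, so the counts of both are not separate observations. Crat, the carnitine acetyltransferase gene, had 1.14, the carnitine carrier genes Slc25a20 and Slc22a5 had 1.35 and 0.74, and Cpt2 had 0.80 (limma adjusted p from 0.0517 to 0.0693). Of 5 acyl-CoA binding proteins 0 passed, with a median of 0.23. Of these 1, Acbd4, was higher at an unadjusted p under 0.05, against 12.1% of all genes.

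Coenzyme A, the product of every thioesterase, is made by pantothenate kinases and recycled by pantetheinases. Of 14 measured genes of its supply and breakdown, 0 rose and 1 fell (limma), against 0.98% and 0.614% of all genes. At an unadjusted p under 0.05, 6 were higher and 2 lower, against 12.1% and 10.3% of all genes. The median log2 fold change of the 14 was 0.26. The kinase gene Pank1 had log2 values of 12.87 and 11.56 in FLCNKO libraries and 9.56 and 9.92 in WT libraries. Its log2 fold change was 2.48 ± 0.44 (moderated SE, 2 libraries a group, with 0.0641 as limma adjusted p). Pank1 is also among the brown and beige markers described above. The coenzyme A carrier gene Slc25a42 had 1.24 and did not pass (adjusted p = 0.0647). The pantetheinase gene Vnn1 had log2 values of 9.34 and 9.73 in FLCNKO libraries and 11.65 and 11.95 in WT libraries, and fell by 2.26 (limma adjusted p = 0.0336). Its relative Vnn3 had -0.91 (adjusted p = 0.0549).

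**Figure D5:**
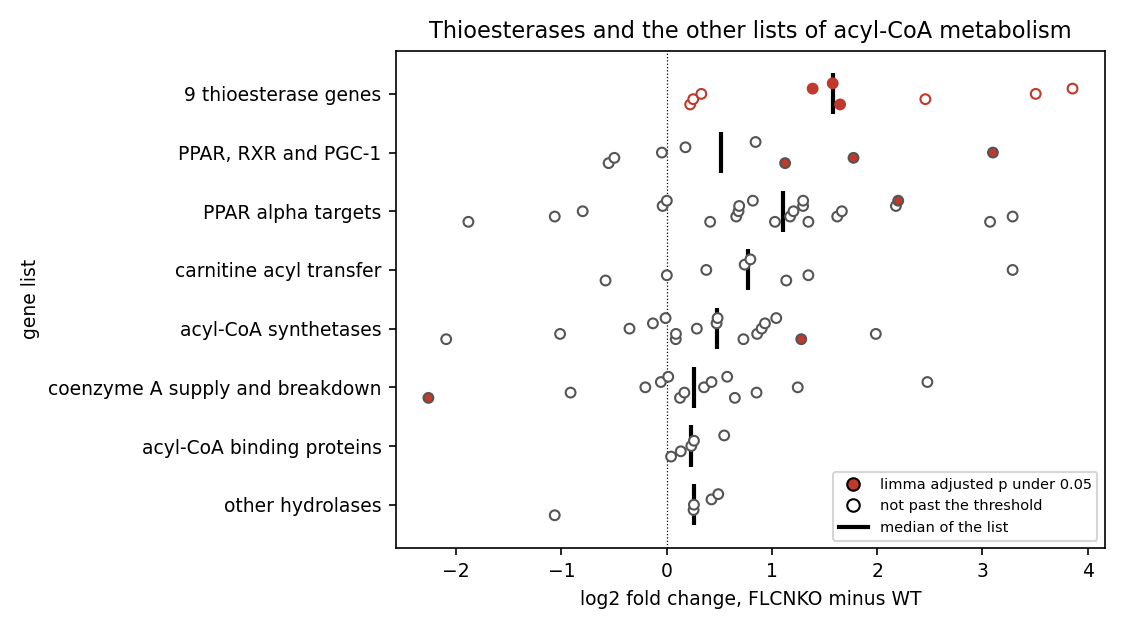
Log2 fold change (FLCNKO minus WT, horizontal axis) of every measured gene in the thioesterase set and in 7 lists of acyl-CoA metabolism and its regulators. Genes in both the carnitine and the PPAR alpha target list are drawn in each. Filled points passed an adjusted p of 0.05 with limma and black bars are medians, which run from 0.23 for acyl-CoA binding proteins to 1.58 for the 9 thioesterases.

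Skeletal muscle, which also expresses thioesterases, left unequal signal in the libraries. FLCNKO replicate 2 had the lowest muscle median, 5.51, and WT replicate 1 the highest, 12.66. Without FLCNKO replicate 1, whose muscle median was 11.71, log2 fold changes were 1.52 for Acot2, 1.40 for Acot4, 1.14 for Acot13 and 2.70 for Acot11. That fit drops a whole library, so the part of muscle in these differences was not tested. Leaving out any 1 library ended every call. It could not reverse any of the 9 directions, since both FLCNKO values lay above both WT values in each gene.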

How the data were processed

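Each library came as a deposited table of log2 values by gene. Per the submitters' processing notes, the names given are STAR, limma and build mm9, without roles. No source used here names the counting program, annotation or strand setting. The unit before the log is not stated either, so depth is unknown and no counting error is given. Symbols were matched by Ensembl identifier for 13592 of 13677 genes.

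Groups and replicate numbers came from library titles. limma 3.58.1 (R 4.3.3) fitted group alone with a mean-variance trend (2 residual and 3.09 prior degrees of freedom), two-sided, Benjamini-Hochberg over all genes, no filter. The fit was tested on simulated data. A log2 fold change is the FLCNKO mean minus the WT mean. Coding sequences were aligned with MAFFT 7.526. The members and lists were chosen with earlier results of these data known. Named genes were the 9 members, Flcn, measured relatives, up to 4 genes per list by smallest p, and the 5 nearest patterns, of which some are not reported here. Ucp1, Prdm16, Dio2, Rxra, Ppard and genes that overlap a member or share its sequence were named after their values were seen. Alternatives were filters, scalings, variance settings, a replicate block, leaving out each library and, chosen after seeing the data, centring on adipocyte markers. Figures used matplotlib 3.10.9.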

Additional observations from a re-analysis of the deposited data

How the results depend on the processing

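All 9 thioesterase genes stayed higher in FLCNKO libraries under every alternative that kept them. Leaving out a library could not reverse this, since both FLCNKO values lay above both WT values in each gene. Filters, variance settings and the replicate block left log2 fold changes unchanged. Only the scalings and the centring on adipocyte markers could have changed a direction. Without the mean-variance trend 0 genes were called over all genes in either direction, and adjusted p was 0.14 for Acot2 and Acot4 and 0.144 for Acot13, with unchanged log2 fold changes of 1.65, 1.58 and 1.39. Leaving out any 1 library also left 0 calls. Log2 fold changes then ranged from 1.52 to 1.78 for Acot2, 1.40 to 1.76 for Acot4, 1.14 to 1.64 for Acot13, 2.70 to 4.31 for Acot11, and -0.17 to 0.063 for Flcn, with 0.063 without FLCNKO replicate 2 and 0.02 without WT replicate 1. Acot11 (3.51) passed with filters on a mean of at least 8 or 10 (adjusted p = 0.0474 and 0.044), with array weights (0.0382) and with the replicate block (0.0234). Genes called over all genes, 134 higher and 84 lower as reported, numbered 187 and 138 with the filter at 8, 207 and 174 with the filter at 10, 201 and 143 with robust estimation. With the filter at 8, which drops Acot1 and Acot3, the median of the remaining members was 1.39.

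The replicate numbers are not known to pair libraries. The differences between replicates 1 and 2 correlated at 0.363 over genes between the groups, and with 2 pairs this does not show a pairing. With the replicate block 401 genes were called higher and 441 lower, and 4 of the 9 thioesterase genes.

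Centring on the adipocyte markers moved the median of all genes by 0.23 and left 81 genes higher and 17 lower. The member median was then 1.81, Acot11 passed at 3.74 (adjusted p = 0.0463), Acot13 no longer passed at 1.62 (adjusted p = 0.0754), and Flcn had 0.18. The cause of these changes was not tested. Shared stretches at 31, 50 and 75 bases were 22.8%, 19.2% and 15.0% for Acot1, 37.8%, 27.7% and 21.2% for Acot2, 25.2%, 21.3% and 18.1% for Acot3, 17.9%, 13.4% and 9.9% for Acot4, and 7.11%, 3.79% and 1.86% for Acot6, against all other genes.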

Other observations

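Of the relatives outside the 9 genes, Ppt2, a lysosomal thioesterase, had log2 values of 10.56 and 10.54 in FLCNKO libraries and 10.01 and 10.10 in WT libraries, with a log2 fold change of 0.49 (limma adjusted p = 0.116). Hibch, the mitochondrial hydrolase of valine breakdown, had 14.71 and 14.40 in FLCNKO libraries and 14.23 and 14.36 in WT libraries. Them4, a mitochondrial thioesterase, had 9.91 and 10.15 in FLCNKO libraries and 9.39 and 9.82 in WT libraries. Acnat2, an acyltransferase of the same superfamily, was low in every library, with 3.63 and 5.94 in FLCNKO libraries and 6.10 and 5.60 in WT libraries. None of the 5 measured relatives, Acot6 included, passed the threshold. Of these 1, Ppt2, was higher at an unadjusted p under 0.05, against 12.1% of all genes.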
